A study of Mus musculus with 3 samples.

Results

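The 5 genes Nfkb1, Nfkb2, Rel, Rela and Relb encode the subunits of the transcription factor NF-kB in mouse. They were found by their symbols and gene identifiers in the deposited tables, each matched a single identifier, and together they are 5 of the 55536 annotated genes measured. The data are total RNA-seq of the chromatin fraction of bone-marrow-derived macrophages, which are primary cells grown out of the marrow, from the mouse strain C57BL/6J. Chromatin-fraction RNA is what stays with the chromatin when cells are fractionated, and ribosomal RNA was depleted before sequencing. The series holds 1 group of 3 libraries, all from cells stimulated for 10 min with Lipid A at 100 ng/ml; Lipid A is the membrane anchor of bacterial lipopolysaccharide and is sensed by the receptor TLR4. Biological replicates 1, 2 and 3 started from 1 µg, 250 ng and 500 ng of RNA, so starting amount and replicate cannot be told apart. Sex and age were not collected, and the labels list a single donor entry for all 3 libraries, and nothing says that separate animals or cultures were used, so the spread may be technical in part. No unstimulated library was analysed here, so a level below is the level under Lipid A and shows no induction or repression.

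NF-kB binds DNA as a dimer of these subunits, which share a DNA-binding Rel homology domain. Rela (p65), Rel (c-Rel) and Relb carry a transactivation domain, whereas Nfkb1 and Nfkb2 encode the precursors p105 and p100, which are processed to p50 and p52 and hold partner subunits in the cytoplasm until then. Resting macrophages keep dimers bound to inhibitors of the IkB family. TLR4 signalling activates the IkB kinase complex, the inhibitors are degraded and the dimers enter the nucleus within minutes, where several subunit and inhibitor genes are themselves known targets of NF-kB.

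Estimated counts on annotated genes totalled 15698066 in replicate 1, 16005795 in replicate 2 and 14386725 in replicate 3. A gene at 0 could have had up to 3 counts, or 0.191, 0.187 and 0.209 CPM (counts normalized to library size) in the same order. The cell label was checked with marker genes, and 10 of 10 macrophage markers reached a TPM (a level normalized for transcript length and library size) of 1 or more in every library. Of 24 markers of 6 other cell types, 1 did so in the gene table, the dendritic cell marker Zbtb46 at 1.43 ± 0.367 TPM (SD, n = 3). The T cell marker Cd3e and the erythroid marker Hba-a1 had no count in any library of the gene table. The second transcript table gave the T cell marker Cd3d 11.4 ± 6.96 TPM beside 0.0709 ± 0.0498 TPM for Cd3e. The summed level of each of these 6 lists lay between 0 and 2.1 TPM per library in the gene table. In bulk RNA, fewer cells of a type and less RNA per cell cannot be told apart.

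All 5 subunit genes were detected, meaning that no library had them below a TPM of 1, as were 24.4% of the 55536 genes and 45.9% of the 22028 protein-coding genes. All 5 also reached 5 TPM or more in every library, as did 14.9% of the genes. The summed level of the 5 genes was 145.35, 98.76 and 102.94 TPM in replicates 1, 2 and 3, and Nfkb1 alone made up 49.6% ± 1.88 of it (SD, n = 3). The other 4 genes followed at 15.4% ± 2.41 for Nfkb2, 12.1% ± 2.26 for Rel, 12.1% ± 0.820 for Rela and 10.8% ± 2.05 for Relb.

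Because chromatin RNA holds transcripts whose introns have not been removed, much of what follows turns on where annotated intron-holding transcripts of these genes leave the spliced form. The borders of selected ones, which are not all of the most abundant, are shown here from the GENCODE M21 transcripts (GRCm38, also called mm10), 5′ to 3′ on the strand of the gene, with the splice donor GT or acceptor AG in capitals and 15 bases on either side of the exon-intron border. All of these introns lie between coding exons.
Nfkb1-204 donor, chr3:135612399-135612428, minus strand: accctgaaatcaaagGTacctgggtggttt
Nfkb1-208 donor, chr3:135618789-135618818, minus strand: accggcaactcacagGTgagccagctgacc
Nfkb1-210 donor, chr3:135603695-135603724, minus strand: tgagaatggggacagGTgagttgagtgggg
Relb-206 acceptor, chr7:19616423-19616452, minus strand: ctgtctcccactcAGctttaacaacctggg
Nfkb2-207 first retained intron with 15 bases of each exon, chr19:46306350-46306500, plus strand: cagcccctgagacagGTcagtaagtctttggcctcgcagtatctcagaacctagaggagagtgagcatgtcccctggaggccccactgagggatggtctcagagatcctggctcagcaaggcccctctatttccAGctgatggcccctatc
Nfkb2-207 second retained intron with 15 bases of each exon, chr19:46309060-46309169, plus strand: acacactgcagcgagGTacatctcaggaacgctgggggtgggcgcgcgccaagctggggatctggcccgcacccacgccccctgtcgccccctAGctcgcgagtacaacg

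Among the transactivating subunits, Rela, the p65 partner of the classical p50:p65 dimer, is a gene of 10648 bases (ENSMUSG00000024927.8, chr19:5637483-5648130, plus strand). It had 17.57, 12.73 and 11.58 TPM in replicates 1, 2 and 3, from 515, 457 and 328 estimated counts. Replicate 1 was the highest library, and the mean was 14.0 ± 3.18 TPM (SD, n = 3). In the second transcript table, which the authors derived directly from the reads, Rela had 40.84, 30.47 and 27.09 TPM, or 32.8 ± 7.17 TPM. These 3 values lay above all 3 of the gene table, and the mean was more than 1 SD higher, so the tables differed by more for Rela than the libraries did.

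Rel, which encodes c-Rel, known for its part in cytokine genes of lymphoid and myeloid cells, spans 34124 bases (ENSMUSG00000020275.9, chr11:23736847-23770970, minus strand). Its level was 14.50, 14.31 and 12.32 TPM in replicates 1, 2 and 3, from 1494, 1849 and 1531 estimated counts. The mean of 13.7 ± 1.21 TPM (SD, n = 3) had the smallest relative spread of the 5 genes, with a coefficient of variation of 8.81%. The second transcript table gave 11.62, 13.00 and 12.83 TPM, a mean of 12.5 ± 0.751 TPM.

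Relb, the subunit that pairs with p52 in the non-canonical pathway, spans 23222 bases (ENSMUSG00000002983.17, chr7:19606217-19629438, minus strand). It had 18.98, 8.97 and 10.51 TPM in replicates 1, 2 and 3, from 539, 334 and 360 estimated counts. Replicate 1 stood above both other libraries, and the mean was 12.8 ± 5.39 TPM (SD, n = 3) with a coefficient of variation of 42.0%, the widest of the 5 genes. The second transcript table gave 22.26, 13.62 and 13.81 TPM, again with replicate 1 highest. In that table the coefficient of variation was 29.8% for Relb and 31.0% for Nfkb2, so Nfkb2 was the widest there.

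Of the precursor genes, Nfkb1 (p105 and p50) spans 106893 bases and is the longest of the 5 (ENSMUSG00000028163.17, chr3:135584655-135691547, minus strand). It had 68.97, 50.18 and 52.08 TPM in replicates 1, 2 and 3, from 2680, 2431 and 2468 estimated counts, and a mean of 57.1 ± 10.3 TPM (SD, n = 3). That level was above 90.1% of the 10120 detected protein-coding genes, whose median was 13.97, 11.45 and 9.65 TPM in the same libraries. In every library Nfkb1 was higher than each of the other 4 genes, by 2.72-fold to 5.59-fold in TPM, and its lowest library lay above the highest library of any of them. The second transcript table gave Nfkb1 64.13, 55.13 and 58.33 TPM, or 59.2 ± 4.56 TPM.

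Nfkb2 (p100 and p52) is the shortest of the 5 at 8066 bases (ENSMUSG00000025225.15, chr19:46304320-46312385, plus strand). Its level was 25.33, 12.57 and 16.45 TPM in replicates 1, 2 and 3, from 1066.42, 684.51 and 760.90 estimated counts. Replicate 1 was highest and replicate 2 lowest, and the mean was 18.1 ± 6.54 TPM (SD, n = 3). In the second transcript table it had 30.10, 16.35 and 21.13 TPM, in the same order of libraries. Nfkb2, Rela, Rel and Relb were above 64.0%, 56.0%, 55.4% and 53.1% of the detected protein-coding genes, so these 4 lay close to the middle of the range and Nfkb1 did not.

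**Figure D1:**
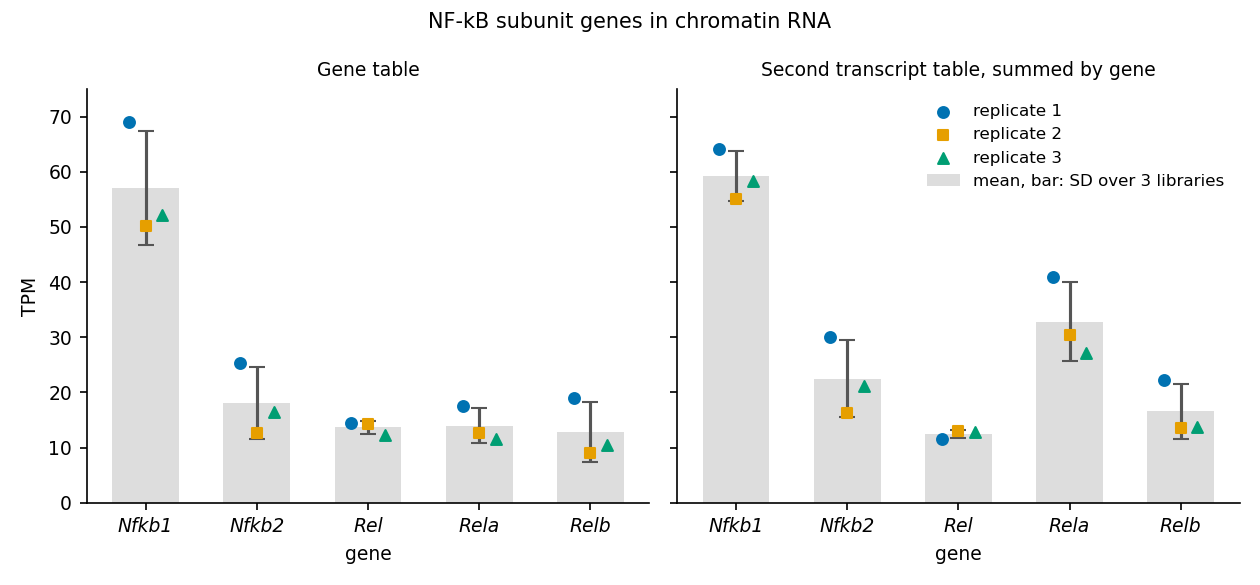
TPM of the 5 subunit genes in the gene table (left) and the second transcript table summed by gene (right); bars are means, error bars are the SD over 3 libraries and symbols are the libraries. Nfkb1 is highest in both tables, at 57.1 and 59.2 TPM, while Rela is at 14.0 TPM on the left and 32.8 TPM on the right.

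In the order Nfkb1, Nfkb2, Rela, Rel and Relb, the first step was the only one in the gene table larger than its spread and of the same sign in all libraries. Nfkb1 exceeded Nfkb2 by 1.64 ± 0.25 on the log2(TPM + 1) scale, higher in 3 of 3 libraries. The step from Nfkb2 to Rela was 0.32 ± 0.29, from Rela to Rel 0.01 ± 0.22 and from Rel to Relb 0.15 ± 0.49 (SD, n = 3), and the ranges of these neighbours overlapped. An exact permutation test that flips the signs of the differences, two-sided, gave for the 4 steps p = 0.25, 0.5, 1 and 0.75 in that order, and a Benjamini-Hochberg adjusted p of 1 for each. With 3 libraries this test cannot go below 0.25, so no step could reach 0.05. In the second transcript table each of these 4 differences had the same sign in all 3 libraries, with p = 0.25 by the exact test for each, unadjusted. Nfkb1 minus Nfkb2 was 1.39 and Rela minus Rel 1.31 there, while Nfkb2 minus Rela was -0.54 and Rel minus Relb -0.35, so that Rela stood above Nfkb2 and Relb above Rel.

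Nfkb1 had the largest share of intron-holding transcripts among the 4 subunit genes annotated with any, on the TPM scale. In the first transcript table, transcripts annotated as retained_intron held 71.9%, 82.2% and 79.1% of the Nfkb1 TPM in replicates 1, 2 and 3, a mean of 77.7% ± 5.29 (SD, n = 3). Over the 6418 detected protein-coding genes that have such a transcript, the median share was 44.7%, 49.2% and 45.8% in the same libraries, and 92.6% of these genes had a lower mean share than Nfkb1. The share was lower for Relb at 37.4% ± 3.55, for Rela at 18.8% ± 6.48 and for Nfkb2 at 11.4% ± 1.20. Their mean shares were above those of 35.1%, 11.5% and 5.55% of these genes. Rel has a single annotated transcript, Rel-201 of 7466 bases, so its intron-holding RNA cannot be seen as a transcript of its own in these tables.

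**Figure D2:**
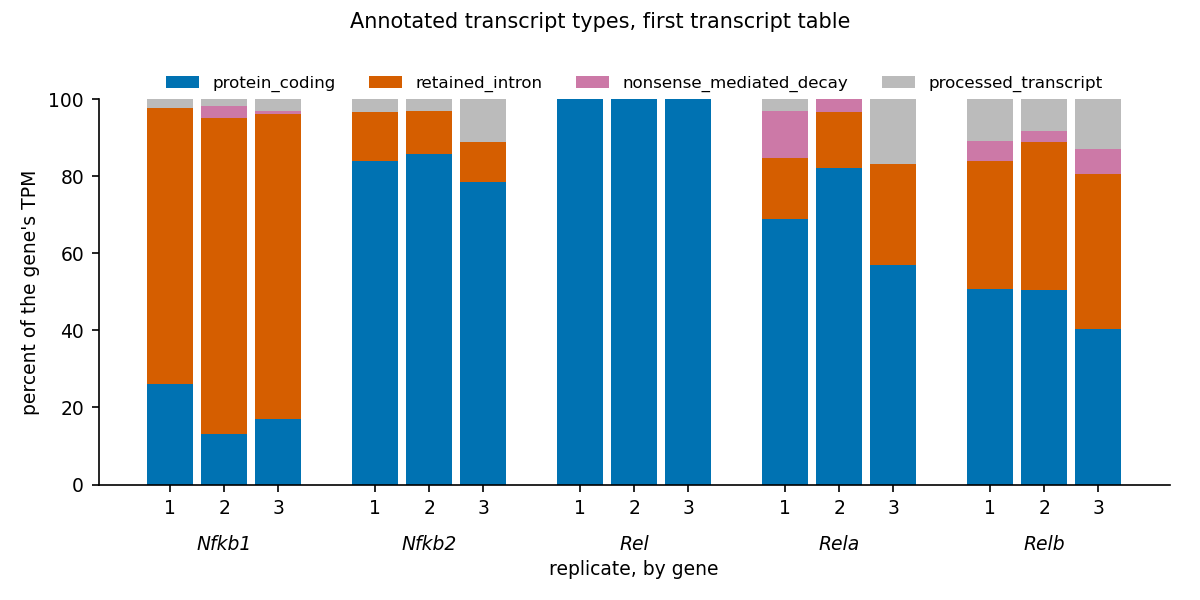
Percent of each gene's TPM in 4 annotated transcript types (stacked bars) for replicates 1, 2 and 3 of each gene, from the first transcript table. Retained_intron transcripts hold 71.9% to 82.2% of Nfkb1, and Rel has only a protein_coding transcript.

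The leading Nfkb1 transcript was Nfkb1-204, which has 12 exons, starts at the 5′ end of the gene and keeps 1824 bases of an intron of 4118 bases beyond the donor printed first above. It had 21.38, 18.22 and 21.38 TPM in replicates 1, 2 and 3, or 20.3 ± 1.82 TPM (SD, n = 3), which is 36.1% ± 5.03 of the gene. Nfkb1-210, a single exon of 2001 bases of which 1859 are intronic, followed at 8.82 ± 1.35 TPM. Neither was highest in replicate 1 alone. Nfkb1-202, with 13 exons, is also annotated as retained_intron, but only 188 of its 2520 bases are intronic. It had 10.41, 6.34 and 6.04 TPM, highest in replicate 1, and 13.1% ± 1.80 of the gene, so that part of the retained_intron share is on a transcript that is mostly exonic. The single-exon Nfkb1-208, of which 3985 of 4149 bases are intronic, was at 7.26 ± 0.993 TPM.

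The full-length protein_coding transcript Nfkb1-201, with 25 exons and 4117 bases, was assigned no count in any library in the first transcript table and 0.181 ± 0.164 TPM in the second. Most of the protein_coding level was on Nfkb1-206, which begins 23748 bases downstream of the gene's 5′ end and had 12.06, 3.58 and 6.00 TPM in replicates 1, 2 and 3. Replicate 1 was the highest library for this transcript. The annotated Nfkb1-204 and Nfkb1-201 overlap in their 5′ exons, so reads there can be split between them in more than 1 way, and the assignment error of single transcripts was not analysed here. The retained_intron share of Nfkb1 was 65.9% ± 4.34 in the second transcript table, lower than in the first but still the largest type in every library.

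**Figure D3:**
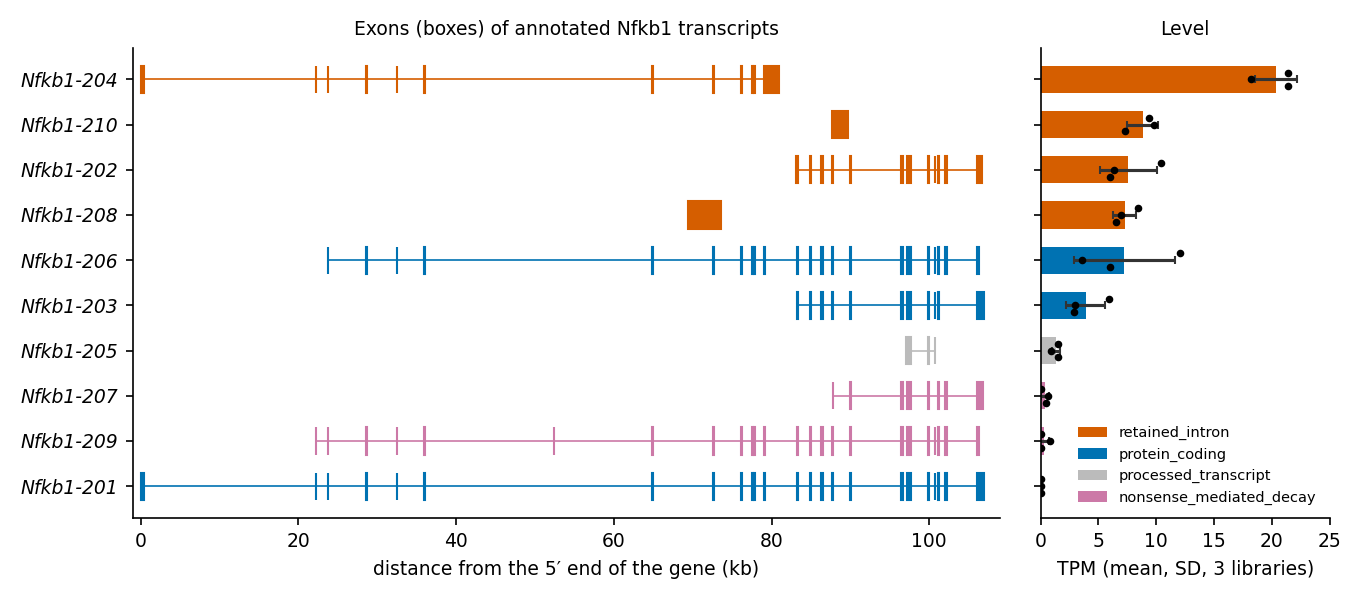
Exons of the 10 annotated Nfkb1 transcripts as boxes against distance from the 5′ end of the gene in kb (left), and their TPM as mean, SD and 3 libraries (right), coloured by annotated type. Nfkb1-204 leads at 20.3 TPM and the full-length Nfkb1-201 is at 0.

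In the first transcript table Nfkb2 was led by protein_coding transcripts, which held 84.1%, 85.9% and 78.5% of its TPM in replicates 1, 2 and 3. Nfkb2-206 had 5.32 ± 1.79 TPM and Nfkb2-202, which begins 1376 bases further downstream, had 5.05 ± 1.39 TPM (SD, n = 3). Nfkb2-201 had 7.07, 1.03 and 4.81 TPM, so these 3 transcripts with different start sites were at similar levels in replicate 1 and Nfkb2-201 was lowest in replicate 2. The retained_intron level of Nfkb2 was on Nfkb2-207, which keeps the introns of 121 and 80 bases printed above and had 3.23, 1.40 and 1.71 TPM.

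Rela-201, the full-length protein_coding transcript, had 12.10, 9.55 and 6.60 TPM in replicates 1, 2 and 3, which is 67.0% ± 9.14 of the gene (SD, n = 3). In the second transcript table it held 18.1% ± 3.26, with more of the gene's level on short transcripts such as Rela-203 of 786 bases, at 26.1% ± 1.25. Rela-203 had 2.55 ± 0.637 TPM in the first table and keeps 35 intronic bases. The part of transcript lengths in the difference between the tables was not tested.

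Relb-202, a protein_coding transcript of 2209 bases, had 7.59, 3.68 and 1.30 TPM in replicates 1, 2 and 3 in the first transcript table and 0 in all libraries in the second. Relb-201 of 2200 bases had 0, 0 and 1.74 TPM in the first table and 4.91, 2.11 and 1.38 TPM in the second. The 2 transcripts share their annotated gene ends and differ little in length, and since the tables divide their reads in opposite ways, their single levels are uncertain. Relb-206 keeps 966 bases of an intron of 1324 bases up to the acceptor printed above and had 3.76, 2.97 and 3.34 TPM in the first table, or 28.2% ± 7.34 of the gene. In the second table it had 0.354, 0.842 and 0.0213 TPM, or 2.64% ± 3.15, while Relb-205, which keeps the same 966 bases, held 25.3% ± 8.05 there and 1.16% ± 2.01 in the first table. The level of a single intron-holding Relb transcript is therefore uncertain as well. By estimated counts, which weight long transcripts more, retained_intron transcripts held 54.7% ± 4.84 of Relb in place of 37.4% of its TPM. By estimated counts of the second table they held 62.2%, 72.3% and 78.3% of Relb and 70.4%, 77.1% and 79.4% of Nfkb1 in replicates 1, 2 and 3, so on that scale the libraries of the 2 genes overlapped.

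The order of the 5 genes depended on what was counted. With protein_coding transcripts alone, Nfkb1 made up 19.2% ± 4.89 of the sum over the 5 genes, in place of 49.6% ± 1.88 with all transcripts (SD, n = 3). By mean, Nfkb2 then led at 26.7% ± 3.08, with Rel at 25.8% ± 5.90 and Rela at 17.7% ± 4.16. In replicate 2 Rel was above Nfkb2, at 30.7% against 23.1%. Rel is annotated with a protein_coding transcript only, so this choice removed none of its level and its share could only rise. With protein_coding transcripts alone, Nfkb1 minus Nfkb2 was -0.46 on the log2(TPM + 1) scale. Counted as CPM, which is not per length, Rel with its transcript of 7466 bases made up 28.0% ± 4.20 and Rela 7.38% ± 1.18. By mean share Relb was lowest on all 3 scales, at 10.8% of TPM, 10.6% of protein_coding TPM and 6.99% of CPM. Single libraries differed. By CPM Rela was below Relb in replicate 1 (8.18% against 8.56%) and in replicate 3 (6.02% against 6.61%). By TPM Rel was lowest in replicate 1, at 9.98% against 13.1% for Relb. In the second transcript table the lowest mean share of TPM was that of Rel, at 8.88% against 11.4% for Relb.

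**Figure D4:**
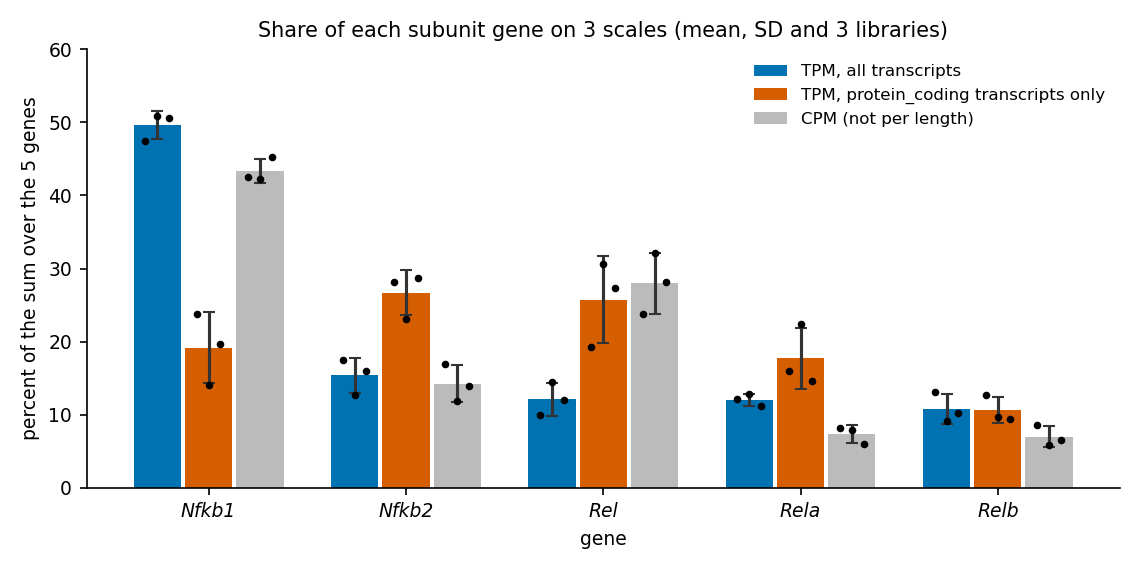
Percent of each subunit gene in the sum over the 5 genes, by TPM of all transcripts, by TPM of protein_coding transcripts only and by CPM; bars are means, error bars SD and points the 3 libraries. The Nfkb1 bar is 49.6% with all transcripts and 19.2% with protein_coding transcripts only.

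Across the 3 libraries the genes did not move together. For this comparison counts were scaled between libraries with TMM, a normalization that sets most genes level. The scaled CPM of Nfkb2 was 68.6 in replicate 1, 40.2 in replicate 2 and 56.0 in replicate 3, and that of Relb was 34.7, 19.6 and 26.5. These genes of the non-canonical pathway were highest in replicate 1 and lowest in replicate 2, and their highest library was 1.71-fold (Nfkb2) and 1.77-fold (Relb) above the lowest. Rela, at 33.1, 26.8 and 24.1 scaled CPM, was also highest in replicate 1, with a ratio of 1.37. Rel, at 96.1, 108.6 and 112.6, was lowest in replicate 1, with a ratio of 1.17. Nfkb1, at 172.3, 142.8 and 181.6, was highest in replicate 3, with a ratio of 1.27, near the median of 1.29 over detected genes.

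Replicate 1 was the highest library for 3 of the 5 genes, as for 38.1% of the 13547 detected genes, and replicate 3 for the other 2, as for 30.3% of them. None of the 5 was highest in replicate 2, where 31.5% of detected genes were. Replicate 2 was the lowest library for Nfkb1, Nfkb2 and Relb, as for 37% of detected genes, replicate 1 for Rel, as for 36.4%, and replicate 3 for Rela, as for 26.6%. For 5 genes these counts are near the background, and the libraries have no order. Scaled the same way, the second transcript table gave Nfkb1 164.5, 125.8 and 153.7 CPM, highest in replicate 1, which was then the highest library for 4 of the 5 genes, as for 48.2% of the detected genes. On the TPM scale all 5 genes were highest in replicate 1, but so were 66.8% of the detected genes.

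**Figure D5:**
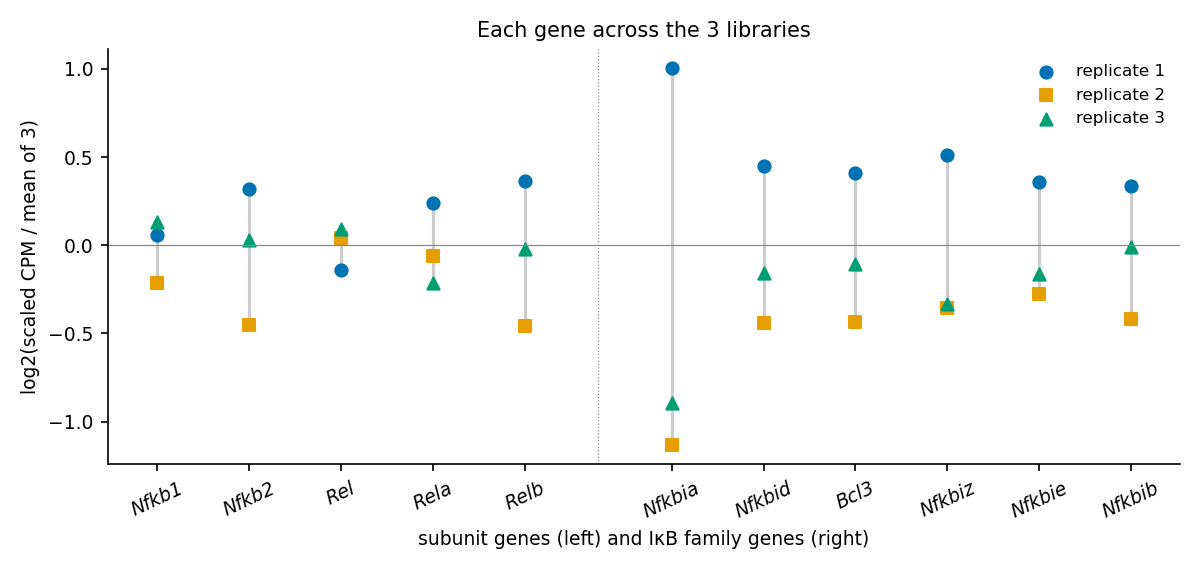
Log2 of TMM-scaled CPM over the mean of the 3 libraries for the 5 subunit genes (left of the dotted line) and the 6 genes of the IkB family (right), with 1 symbol per library. Nfkb2, Rela and Relb and all 6 IkB family genes are highest in replicate 1, while Rel is lowest there.

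The spread between libraries was estimated for each gene with edgeR as the biological coefficient of variation, which removes counting error and moderates each gene towards the others. It was 0.142 for Rel, 0.148 for Nfkb1, 0.160 for Rela, 0.188 for Nfkb2 and 0.195 for Relb, against a median of 0.178 over 15877 genes. Without moderation between genes, an alternative chosen after seeing the data, the values were 0.0786 for Rel, 0.123 for Nfkb1, 0.154 for Rela, 0.261 for Nfkb2 and 0.276 for Relb, against a median of 0.114. Relb was then above 85.5% of the genes and Nfkb2 above 83.9%, in place of 58.9% and 55.3% with moderation, so how far these genes stand out rests on that choice. Rel was the steadiest and Relb the most variable of the 5 in both fits, but with moderation and without replicate 2 Rela was the most variable at 0.177 and Nfkb1 the steadiest at 0.152. Counting error alone was 1.93% to 5.52% of a gene's count.

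Some reads near these genes may belong to other genes, and the sources used here do not give whether strand was used in counting. AC114539.1, a bidirectional promoter lncRNA on the opposite strand, overlaps the 5′ end of Nfkb2 and had 10.66, 5.50 and 4.63 TPM in replicates 1, 2 and 3. Psd, a protein-coding gene on the opposite strand, overlaps the 3′ end of Nfkb2 and had 7.81, 5.32 and 4.26 TPM. Estimated counts of Nfkb2 were fractional, as they are when reads are divided between genes. So were those of AC114539.1 (235.69, 150.02 and 122.3) and of Psd (87.88, 81.47 and 66.79). How many reads Nfkb2 shared with either was not tested. By TPM, AC114539.1 and Psd were highest in replicate 1, as Nfkb2 was, but so were 66.8% of the detected genes. The part of these 2 genes in the Nfkb2 values was not tested. Gm43430, a gene of type TEC on the same strand within the Nfkb1 span, had 8.93, 9.16 and 7.03 TPM. It lies in an intron and overlaps no annotated Nfkb1 exon, and the counts of Gm43430 and Nfkb1 were whole numbers. The authors' standard deviation from read assignment was 0 for the other 4 genes and between 0.381% and 0.478% of the count for Nfkb2.

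Upstream sequence was given by RefSeq (GRCm38.p6) for 3 of the 5 genes, as 250 bases before a start, with 3 starts for Nfkb2 and 1 each for Rel and Rela. It was searched on both strands for the kB consensus, the 10-base motif that NF-kB dimers bind, since several subunit genes are known NF-kB targets. A match was present in 7.25% of all 32851 such windows and 2 or more, overlaps included, in 1.03%. The Rel window held 2 matches that overlap and end 82 and 81 bases before the start. The windows of Nfkb2 held 3, 1 and 1 matches, the first with a pair that overlap, and the Rela window held none, which says only that these letters are not in it. Matches are printed in capitals for Rel, for the stretch before its exon, and for the Nfkb2 start next to Nfkb2-202, and as sites for the most upstream Nfkb2 window, which lies in an annotated exon.
Rel, chr11:23770971-23771219, minus strand: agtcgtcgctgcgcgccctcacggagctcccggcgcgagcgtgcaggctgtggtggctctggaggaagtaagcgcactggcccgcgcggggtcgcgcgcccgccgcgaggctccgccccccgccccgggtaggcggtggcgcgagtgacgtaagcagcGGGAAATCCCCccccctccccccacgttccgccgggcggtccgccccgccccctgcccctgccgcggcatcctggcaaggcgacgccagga
Nfkb2, chr19:46305445-46305694, plus strand: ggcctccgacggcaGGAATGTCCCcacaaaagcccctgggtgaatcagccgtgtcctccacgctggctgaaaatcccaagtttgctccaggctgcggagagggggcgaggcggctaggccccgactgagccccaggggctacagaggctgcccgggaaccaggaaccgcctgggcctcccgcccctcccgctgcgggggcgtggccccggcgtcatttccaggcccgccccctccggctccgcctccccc
Nfkb2 upstream site, chr19:46304689-46304718, plus strand: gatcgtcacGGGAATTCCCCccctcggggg
Nfkb2 site next to the start, chr19:46304707-46304736, plus strand: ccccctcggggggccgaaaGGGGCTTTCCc

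Genes of the same pathway are given beside the subunits, on the TPM scale and as means over the 3 libraries. All 6 inhibitors and related ankyrin proteins of the IkB family were detected, with a median of 11.7 ± 5.78 TPM (SD, n = 3), against the subunit range of 12.8 to 57.1 TPM. Nfkbia, which encodes the inhibitor IkBα, had 78.27, 15.40 and 14.97 TPM in replicates 1, 2 and 3, so its mean of 36.2 ± 36.4 TPM rests on replicate 1 and is 15.2 TPM without it. Nfkbid at 16.0 and Bcl3 at 13.5 TPM followed, and without replicate 1 both were at 10.0 TPM. Of the 6, Nfkbie at 4.55 and Nfkbib at 3.12 TPM were lowest. All 6 were highest in replicate 1 on scaled CPM, where 3 of the 5 subunit genes and 38.1% of detected genes were.

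All 9 genes of canonical IkB kinase activation were detected, with a median of 22.7 ± 2.62 TPM. The kinases Chuk (IKKα) at 90.1 and Ikbkb (IKKβ) at 75.4 TPM and the adaptor Tab2 at 43.3 TPM led, and the ubiquitin ligase Traf6 at 11.6 and the adaptor Tab3 at 4.31 TPM were lowest. The mean of Chuk and that of Ikbkb were above that of Nfkb1. On scaled CPM 2 of these 9 genes were highest in replicate 1, where 38.1% of detected genes were. These were Irak4 and Tab1, which were named after their values were seen.

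All 8 genes of the non-canonical pathway, which releases p52 and Relb dimers, were detected, with a median of 14.3 ± 3.53 TPM. The ubiquitin ligase Birc3 at 47.9, the TNF receptor Tnfrsf1b at 33.2 and the kinase Map3k14 (NIK), which starts p100 processing, at 24.1 TPM were highest, and the adaptor Traf3 at 7.55 and the receptor Cd40 at 4.18 TPM lowest. Of these 8 genes 5 were highest in replicate 1 on scaled CPM, where 38.1% of detected genes were. All 9 genes of IkB degradation and precursor processing were detected, with a median of 21.1 ± 1.29 TPM. They were led by Vcp at 64.9, Cul1 at 44.0 and the ligase Rnf123 at 39.0 TPM, with Fbxw11 at 9.81 and Skp1a at 5.67 TPM lowest.

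The NFAT family, which shares the Rel homology domain, had 4 of 5 genes detected in the gene table and a median of 16.9 ± 3.10 TPM, with Nfat5 at 71.2, Nfatc2 at 30.0 and Nfatc1 at 16.3 TPM highest. Nfatc3 was at 16.1 TPM, and Nfatc4 was below the detection limit at 0.13 TPM. All 5 were detected in the second transcript table, with Nfatc4 at 9.71 ± 1.41 TPM. By the means of the gene table, Nfat5 was the only one above Nfkb1, and Nfatc2, Nfatc1 and Nfatc3 were above Rela, Rel and Relb. The second transcript table gave Nfatc2 27.6, Nfatc3 19.7 and Nfatc1 15.4 TPM. There Rela, at 32.8 TPM, was above all of these, and Relb, at 16.6 TPM, was above Nfatc1. All 11 coactivators and modifiers of RelA were detected, with a median of 17.4 ± 3.96 TPM. The acetyltransferases Ep300 at 94.4 and Crebbp at 34.1 TPM were among the highest, and Commd1 at 2.97 TPM was lowest.

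Of 21 target genes of NF-kB in macrophages, 3 of which are also in the lists above, 19 were detected in the gene table, with a median of 17.7 ± 10.2 TPM. The transcription factor Irf1 at 73.7, Birc3 at 47.9 and the inhibitor Tnip1 at 37.8 TPM led, and the chemokine Cxcl1 at 1.95 and the cytokine Il6 at 0.01 TPM were lowest and not detected. The mean of Irf1 rests on replicate 1 and is 47.9 TPM without it, and that of Cxcl1 is 0.9 TPM. Of the 21, the second transcript table had 20 detected. On scaled CPM 18 of the 21 were highest in replicate 1, beside 3 of the 5 subunit genes and 38.1% of detected genes. This was not particular to the target genes, since 9 of the 10 macrophage markers were also highest there. Counts in the other lists varied. All 6 IkB family genes, 5 of the 8 non-canonical genes and 6 of the 9 degradation and processing genes were highest in replicate 1. So were 6 of the 11 coactivators. Only 2 of the 5 NFAT genes and 2 of the 9 canonical genes were, beside 38.1% of detected genes. In the gene table the medians of the 7 gene lists, other than the IkB family, lay between the mean levels of Rela and Nfkb1. Only the canonical list did so in the second transcript table, at 42.7 TPM, where Rela was at 32.8 TPM. Nothing about a list was tested.

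The protein-coding genes with the level pattern most like each subunit gene were found by Euclidean distance of log2(TPM + 1) over the 3 libraries. They were Clk2 and Fam120a for Nfkb1, at distances of 0.03 and 0.03. For Nfkb2 they were Tmem256 and Ube3b, at 0.13 and 0.13, and for Relb they were Mrpl4 and Aif1, at 0.12 and 0.14. For Rel they were Nus1 and Rap1a, at 0.04 and 0.04, and for Rela they were Eif5a and Erlec1, at 0.03 and 0.05. No subunit gene was named for another because the 5 were left out of this search, and 3 libraries make such likeness a description only.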

How the data were processed

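The authors deposited a gene table and 2 transcript tables per library, which hold estimated counts and TPM per the file headers, and in the gene table a read-assignment error. Per the deposited readme files, reads were placed on mm10 with annotation M21; programs and versions: not given in the sources used here. Rows naming no annotated gene were left out; their share of estimated counts was 1.16% in replicate 1, 0.459% in replicate 2 and 0.351% in replicate 3. The second transcript table was summed by gene. Levels are the deposited TPM. Counts were rounded for edgeR 4.0.16 (R 4.3.3), which gave TMM scaling and the biological coefficient of variation (intercept only) over genes with a mean of 10 or more counts; the script was tested on simulated counts. DESeq2 1.42.0 size factors were an alternative. Sums and shares used pandas 2.3.3. With 1 group, no test between conditions exists. Log2 differences used a pseudocount of 1, which understates folds of low genes. The limit of 3 counts covers counting error only, whereas ± values are the SD over the 3 libraries.

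The subunit genes and the 7 gene lists were chosen with earlier results of these data known. Named genes are the 5 subunits, the 3 highest and 2 lowest of each list by mean TPM, the 2 nearest genes and the 2 leading transcripts of each subunit, except where a choice after seeing values is stated; some genes this rule names are not reported here. Further Nfkb1, Nfkb2 and Relb transcripts, Nfatc3 and the overlapping genes were also named after their values were seen.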

Additional observations from a re-analysis of the deposited data

How the results depend on the processing

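Across 34 results and 184 alternatives, 149 kept their value within the spread or their direction, 28 moved and 7 reversed. The cause was not tested. Log2 differences were labelled by sign alone, so some that changed much in size count as kept. Rel minus Relb was 0.15 in the main setting, 1.97 as CPM and 1.12 with protein_coding transcripts only. In the second transcript table the mean TPM was 12.5 for Rel and 32.8 for Rela, the share of the summed TPM was 41.5% for Nfkb1, 8.88% for Rel and 22.7% for Rela, Nfkb2 minus Rela was -0.54 and Rel minus Relb -0.35 (log2), and the retained intron share was 65.9% for Nfkb1, 17.7% for Nfkb2, 26.1% for Rela and 47.0% for Relb. List medians there were 22.7 TPM (IkB family), 42.7 (canonical), 21.6 (non-canonical), 25.4 (degradation and processing) and 25.6 (coactivators). As CPM the shares were 43.4% for Nfkb1, 28.0% for Rel, 7.38% for Rela and 6.99% for Relb, and Rela minus Rel was -1.89. With protein_coding transcripts only they were 19.2% for Nfkb1, 26.7% for Nfkb2, 25.8% for Rel and 17.7% for Rela, with Nfkb1 minus Nfkb2 at -0.46 and Rela minus Rel at -0.49. With the posterior mean TPM the share of Rela was 13.6%. By estimated counts the retained intron share was 5.76% for Rela and 54.7% for Relb. Leaving out each replicate in turn gave -0.12 to 0.089 for Rela minus Rel and -0.078 to 0.41 for Rel minus Relb, so these orders reverse with 1 library (without replicate 1 and without replicate 2). By TPM, 5 genes were highest in replicate 1 and 2 lowest in replicate 3. Without moderation, an alternative chosen after seeing the data, the biological coefficient of variation of Rel was 0.0786. No paired analysis was possible because there is a single group. Depth did not limit detection of the 5 genes, whose lowest count was 328, but it limits single transcripts with few counts.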
